A study of Mus musculus with 16 samples.

Results

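The regions described are 3842 stretches of open chromatin that lie between 1 and 3 kb from a gene start, of 40796 regions in the authors' deposited ATAC-seq table of monocytes sorted by Nrp1. They were chosen by the annotation in that table, which places 2083 of them at 1 to 2 kb and 1759 at 2 to 3 kb from the closest start, and no measured value entered the choice. ATAC-seq inserts adapters into accessible DNA with a transposase. Cells with high and with low Nrp1 on the surface (neuropilin-1, which binds semaphorins and vascular endothelial growth factors together with their signalling receptors) were sorted from spleens of 7-day-old wild type C57BL/6 mice for ATAC-seq (5 Nrp1 high and 5 Nrp1 low libraries of 50000 cells) and of C57BL/6J mice for RNA-seq (3 Nrp1 high and 3 Nrp1 low libraries of 80000 cells). The cell type label of every sample reads myeloid derived suppressor cells, while the protocol calls the same cells monocytes, and the library descriptions of the RNA samples write Nrp1_pos and Nrp1_neg for high and low. Neither a separate animal per library nor the other markers of the sort is given in the sources used here, so p-values cover the spread among these libraries alone, and that spread may be technical. The study asked whether Nrp1, its ligand Sema4a, the p38 and mTORC1 pathways and the transcription factor Klf4 underlie immune suppression by neonatal monocytes.

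Nucleosomes next to an active promoter are displaced over the start itself, and the DNA 1 to 3 kb away can hold enhancers, alternative starts or the beginning of the transcribed body. Open chromatin there is bound in myeloid cells by factors such as PU.1, C/EBP, RUNX and AP-1 proteins, and it often differs more between related cell types than the start does. The annotation assigns a region to the closest start, which need not be the gene it acts on.

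Distances to the assigned start ran from 1001 to 2999 bases with a median of 1916, and the regions labelled within 1 kb reached 1000 bases at most. Of the flank regions 1820 lay upstream of the start and 2022 downstream, 2358 lay inside a protein-coding gene of RefSeq and 1060 outside every RefSeq gene. A width of 400 bases was shared by 98.9% of them, and the widest spanned 790 bases. They were assigned to 3408 genes, 3024 of which had 1 flank region, 339 had 2, 40 had 3 and 5 had 4. The assigned symbol was a protein-coding gene for 2379 regions, a long noncoding RNA for 360, a pseudogene for 313 and a microRNA for 45, and 670 symbols were not matched to RefSeq.

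No column of the authors' deposited table says which group its fold sets on top, so the direction used throughout, Nrp1 high over Nrp1 low, rests on the name of the comparison. The measurements that bear on it point both ways. Of 8 regions of Nrp1 itself, 2 within introns were higher in Nrp1 high cells in the authors' deposited table (log2 fold 1.50 and 1.47), and 1 was lower (-0.39). Of 188 regions of the 89 genes with lower RNA in Nrp1 high cells that had a region, 20 were higher and 3 were lower in that table. The granule genes Camp and S100a9 are examples, with deposited log2 folds at the start of 1.09 and 1.11 and RNA log2 differences of -3.71 and -2.99. If the fold ran the other way, each "higher" and "lower" of an ATAC region below would swap, while counts of called regions would stay. This was not tested.

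Among the 6 RNA libraries, total counts were 28866801, 31428419 and 28440098 in Nrp1 high and 35127433, 23395363 and 26962442 in Nrp1 low. Mitochondrially encoded genes took 3.01, 1.29 and 2.37% of counts in the Nrp1 high libraries and 0.784, 1.57 and 1.11% in the Nrp1 low libraries. Nrp1 low replicate 1 stood apart in several genes named below, and the values without it are given where they change a call. Genes of classical monocytes summed to between 31808 and 39980 CPM (counts scaled to the size of the library) in Nrp1 high and between 36416 and 51449 CPM in Nrp1 low, and none of the 18 passed the test. Genes of neutrophil secondary granules and maturity summed to between 7998 and 9201 CPM in Nrp1 high and between 46144 and 76755 CPM in Nrp1 low, and 18 of 24 were lower in Nrp1 high. Genes of primary granules summed to between 4308 and 7514 CPM in Nrp1 high and between 14671 and 22824 CPM in Nrp1 low, with 8 of 17 lower. In such bulk samples, fewer cells of a type and less RNA per cell cannot be told apart.

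Some flank regions reach into a second start that RefSeq annotates, and 35 did so, 3 of them called. The sequences of 2 of these starts are shown because the called region covers part of the DNA just before the start. They are the 250 bases before the start on GRCm38.p6, read on the strand of the transcript, with the bases inside the flank region in capitals. The window of the noncoding RNA Gm41235 (chr14:103048741-103048990, minus strand) overlaps the flank of Acod1 (chr14:103048471-103048870), and 130 of its bases lie inside. That of Gm16553 (chr8:3711554-3711803, plus strand) overlaps the flank assigned to the same gene (chr8:3711690-3712089), with 114 bases inside.
Gm41235: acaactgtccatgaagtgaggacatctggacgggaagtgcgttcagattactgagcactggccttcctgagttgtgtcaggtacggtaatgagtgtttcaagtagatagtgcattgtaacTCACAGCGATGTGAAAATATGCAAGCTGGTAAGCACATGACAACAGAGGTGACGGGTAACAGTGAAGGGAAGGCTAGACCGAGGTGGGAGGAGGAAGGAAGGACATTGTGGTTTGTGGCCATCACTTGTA
Gm16553: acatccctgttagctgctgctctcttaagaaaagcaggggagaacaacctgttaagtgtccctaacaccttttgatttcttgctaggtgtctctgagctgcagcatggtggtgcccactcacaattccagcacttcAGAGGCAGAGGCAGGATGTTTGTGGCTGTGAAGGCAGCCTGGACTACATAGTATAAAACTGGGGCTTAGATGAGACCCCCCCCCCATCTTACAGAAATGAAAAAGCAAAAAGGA
The first of these holds the RUNX letters TGTGGT within the flank and the second the KLF/SP letters GGGNGGGG, here as their complement in the run of C. RUNX letters occur on either strand in 14.0% and the KLF/SP letters in 30.8% of 32851 RefSeq windows of the same length, so a match is a description only.

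The flank with the largest fold among microRNA genes lay 2436 bases from the start assigned to Mir7688, and that of Mir6962, inside the gene of the activin receptor Acvr1b, lay 2365 bases from its start. Their mature RNAs, from RefSeq on GRCm38.p6, are shown with the seed (bases 2 to 8) in capitals, because these are the only 2 called flanks of microRNA genes.
mmu-miR-7688-5p: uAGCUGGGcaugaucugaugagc
mmu-miR-7688-3p: uCUGGCUUaugccuagcuuuc
mmu-miR-6962-5p: aAGGACCUggugggagaucu
mmu-miR-6962-3p: uAUCUGCCcuucccuguccuau
No 2 of these seeds are alike. The flank of Mir7688 (chr10:93435543-93435942) had a log2 fold of 2.21 (FDR 0.00052) in the authors' deposited table, and that of Mir6962 (chr15:101196234-101196633) one of -0.90 (FDR 0.0148). Neither sequence says anything of the RNA, which was not measured here at the level of mature microRNAs.

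At an FDR under 0.05 in the authors' deposited table, 96 flank regions were higher and 223 were lower in Nrp1 high cells. That is 8.30% of the flanks, against 7.55% of all 40796 regions, and so close to the background. The higher regions made up 2.50% of the flanks against 2.56% of all regions, and the lower ones 5.80% against 4.99%. Of 15510 regions within 1 kb of a start 248 were higher and 564 lower in that table (5.24%), and of 9916 distal intergenic regions 345 were higher and 572 lower (9.25%). The median log2 fold of all flanks was -0.12 in the authors' deposited table, beside -0.09 over all regions, -0.05 within 1 kb and -0.13 in distal regions. These shares are given as counts, with no test between classes.

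**Figure D1:**
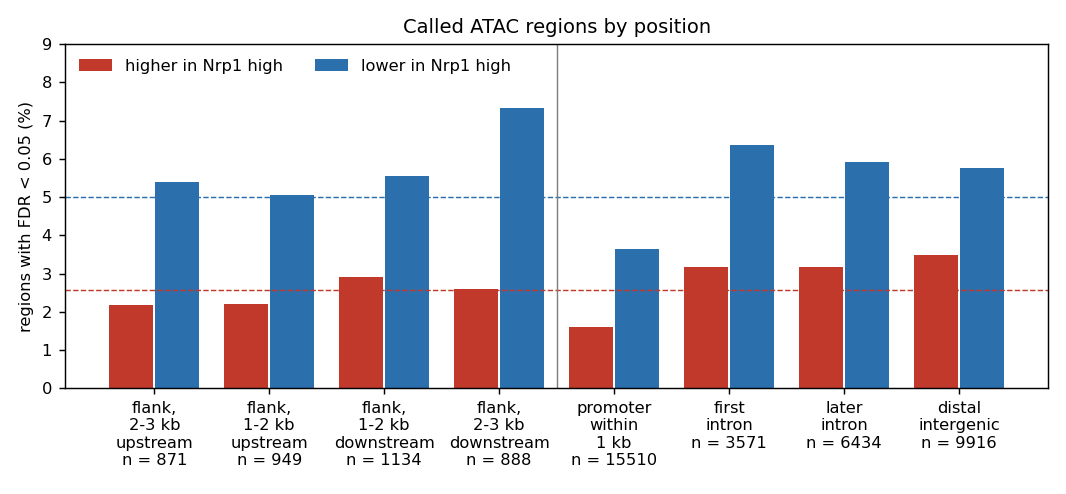
Share of ATAC regions with a deposited FDR under 0.05 that were higher (red) or lower (blue) in Nrp1 high cells, in %, for flanks by side and distance (left of the line) and for other annotation classes; dashed lines are the shares over all regions, 2.56% higher and 4.99% lower. The share lower is highest among flanks 2 to 3 kb downstream (7.32%), and both shares are smallest within 1 kb.

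Within the flanks, the share called was 7.42% upstream (40 higher, 95 lower) and 9.10% downstream (56 higher, 128 lower) in the authors' deposited table. It was 9.91% at 2 to 3 kb downstream and 7.27% at 1 to 2 kb upstream. Of first-intron regions elsewhere, 9.52% were called. Among called flanks the median deposited log2 fold was 0.91 for the higher and -0.78 for the lower, and 43 higher and 53 lower ones differed by at least 1. The folds of all flanks ran from -1.75 to 2.26. On either side of the threshold stood a flank of the chemokine receptor Ccr9 (log2 fold -0.42, FDR 0.04998) and one of Tgfbi (0.92, FDR 0.0501), which encodes an extracellular matrix protein.

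**Figure D2:**
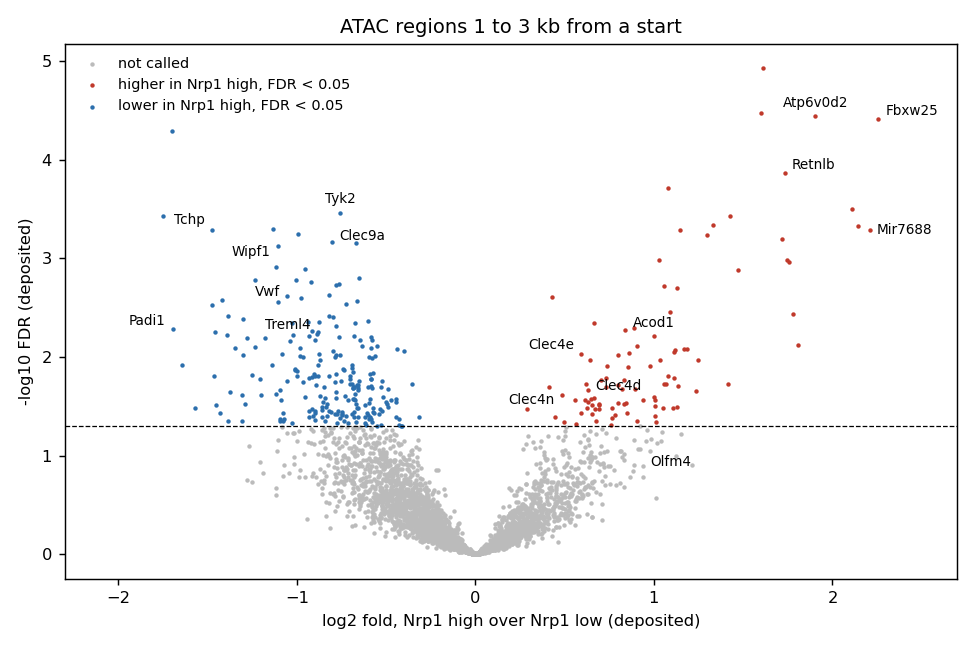
Each point is 1 of the 3842 flank regions, with the deposited log2 fold of Nrp1 high over Nrp1 low on the horizontal axis and -log10 of the deposited FDR on the vertical; the dashed line is an FDR of 0.05. The 96 higher regions reach 2.26 and the 223 lower ones reach -1.75, and the flank of Olfm4 at 0.94 lies under the line.

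The flanks with the lowest FDR on the higher side sat mostly at genes with little or no RNA in these cells. Atp6v0d2 encodes a subunit of the proton pump of lysosomes, known from osteoclasts and macrophages. Its flank (chr4:19913966-19914365, inside the gene) had a log2 fold of 1.90 (FDR 3.6e-05) in the authors' deposited table, and another region of the gene far downstream of the start was lower (-1.34). RNA of Atp6v0d2 stood at 0.354, 0.428 and 0 CPM in Nrp1 high libraries and at 0 in all 3 Nrp1 low libraries. There 3 counts, taken as an approximate upper limit for a count of 0, would be 0.0953 to 0.125 CPM.

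Retnlb encodes a resistin-like secreted protein of the gut epithelium. The flank of Retnlb (chr16:48818740-48819139) had a log2 fold of 1.73 (FDR 0.000136) in the authors' deposited table, and its other region, at -17056 bases from the start, was also higher (1.66). Its RNA was 0.129, 0 and 0 CPM in Nrp1 high and 0, 0 and 0.541 CPM in Nrp1 low, under the filter on low counts. The largest fold of all flanks, 2.26 in that table, belonged to Fbxw25, a member of a family of near-identical F-box genes whose reads may be shared among copies. Other higher flanks by the same rule were those of the pseudogene Spn-ps (1.61), the olfactory receptor Olfr1044 (1.30), the ubiquitin ligase Trim7 (1.06) and the antibody segment Ighv1-44 (1.81), all values from the authors' deposited table.

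Higher flanks also lay at genes with RNA. In the authors' deposited table the flanks of Txnl4b, a thioredoxin-like protein of the spliceosome, and of Rab23, a small GTPase of ciliary signalling, had log2 folds of 1.42 and 1.14. RNA of Txnl4b was 17.0, 21.6 and 16.7 CPM in Nrp1 high and 32.4, 19.7 and 28.2 CPM in Nrp1 low. RNA of Rab23 was 1.90, 3.15 and 1.94 CPM in Nrp1 high against 1.40, 2.17 and 0.916 CPM in Nrp1 low. In both genes the libraries of the groups overlapped, and neither passed edgeR's quasi-likelihood test with Benjamini-Hochberg adjustment (adjusted p = 0.455 for Txnl4b and 0.568 for Rab23).

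The flank of Acod1 (log2 fold 0.84, FDR 0.00536 in the authors' deposited table), shown above by its sequence, was chosen after its values were seen. Acod1 makes itaconate, an immune-regulating metabolite of activated macrophages. Its RNA gave no count in the 3 Nrp1 high libraries, where 3 counts would be 0.0916 to 0.0971 CPM, and stood at 0.382, 2.00 and 1.04 CPM in the Nrp1 low libraries. All 3 Nrp1 low libraries were above all Nrp1 high libraries, yet the gene was under the filter and not tested. Groups without overlap were found for 20.3% of all genes tested.

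Of the 223 lower flanks 118 had a gene tested in RNA, beside 40 of the 96 higher ones and 2134 of all 3842. The lowest FDR among them belonged to Tyk2, a Janus kinase of the type I interferon and interleukin-12 receptors, whose flank (chr9:21125521-21125920, inside the gene) had a log2 fold of -0.76 (FDR 0.000351) in the authors' deposited table. The region at the start of Tyk2 was not called there (-0.17). RNA of Tyk2 was 94.7, 75.0 and 109.6 CPM in Nrp1 high libraries and 32.6, 79.2 and 60.9 CPM in Nrp1 low libraries. The groups overlapped by 1 library each, and the log2 difference of 0.69 ± 0.33 (SE) missed the threshold of edgeR's quasi-likelihood test with Benjamini-Hochberg adjustment (adjusted p = 0.445).

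Jak1, a second kinase of this family that pairs with Tyk2, was picked after its values were seen. Its flank (chr4:101182620-101183019) had a log2 fold of -0.76 (FDR 0.00634) in the authors' deposited table, while 4 other regions of the gene stood between -0.20 and 0.46 and were not called. RNA of Jak1 was 145.3, 125.4 and 130.5 CPM in Nrp1 high and 64.7, 186.9 and 119.5 CPM in Nrp1 low, so that the Nrp1 low libraries lay on both sides of the Nrp1 high ones.

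The actin regulator Wipf1, which binds the Wiskott-Aldrich syndrome protein, had a flank (chr2:73526679-73527078) at a log2 fold of -1.11 (FDR 0.000743) in the authors' deposited table. Of the 13 regions of Wipf1, 2 were called there, this one and a first-intron region (-0.54). RNA of Wipf1 was 128.3, 77.1 and 143.5 CPM in Nrp1 high and 9.28, 88.1 and 53.3 CPM in Nrp1 low, with Nrp1 low replicate 1 far below the rest. The RNA log2 difference of 1.21 ± 0.66 (SE) missed the threshold of edgeR's quasi-likelihood test (Benjamini-Hochberg adjusted p = 0.465).

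Ankrd44 encodes an ankyrin-repeat subunit of protein phosphatase 6. Its flank stood at a deposited log2 fold of -0.99 (FDR 0.000568), and its RNA at 107.9, 91.8 and 115.9 CPM in Nrp1 high against 41.0, 106.0 and 78.4 CPM in Nrp1 low. Nol4l, a nucleolar protein gene, had 2 flanks, 1 upstream and 1 downstream of the start each is assigned to, and both were lower in the authors' deposited table (-1.13 and -1.05). RNA of Nol4l was 3.50, 2.35 and 4.57 CPM in Nrp1 high and 1.62, 2.05 and 1.71 CPM in Nrp1 low, with all Nrp1 high libraries on top. Slc38a9, an arginine sensor of the lysosome that acts on mTORC1, had a flank at -0.65 (FDR 0.00159) in that table. RNA of Slc38a9 was 43.1, 39.6 and 44.2 CPM in Nrp1 high and 24.7, 32.1 and 32.7 CPM in Nrp1 low, again without overlap. Neither gene passed edgeR's quasi-likelihood test with Benjamini-Hochberg adjustment (adjusted p = 0.445 for Nol4l and 0.441 for Slc38a9), and groups without overlap were found for 20.3% of all genes tested.

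Further lower flanks with the lowest FDR or the largest fold in the authors' deposited table were those of Tchp (-1.48), a keratin-binding protein, Slc23a2 (-0.78), a vitamin C transporter, Olfr694 (-0.76), Padi1 (-1.70), a peptidylarginine deiminase, Adipoq (-1.46), the adipocyte hormone adiponectin, Fam178b (-1.46), Dguok (-1.38), a mitochondrial nucleoside kinase, and AC117663.1 (-0.96). Padi1 and Adipoq had no row in the RNA table.

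The genes picked from the study's subject gave no called flank. Of Nrp1, Sema4a, Klf4, Nos2, Mapk14 and Mtor, only Klf4 and Sema4a had a flank region. Klf4, a zinc finger factor of monocyte differentiation, had a flank at a log2 fold of 0.06 (FDR 0.917) in the authors' deposited table. Sema4a, a semaphorin of myeloid cells, had one at -0.23 (FDR 0.693) there. The region at the start of Sema4a, which is not a flank, was lower (-0.68, FDR 0.0129). The 2 regions within 1 kb of Klf4 were not called (-0.33 and -0.19). RNA of Klf4 was 235.1, 113.9 and 222.4 CPM in Nrp1 high against 17.1, 122.9 and 84.8 CPM in Nrp1 low. RNA of Sema4a was 219.3, 303.6 and 230.8 CPM in Nrp1 high and 357.5, 266.6 and 297.5 CPM in Nrp1 low. Groups overlapped in both, and the two-sided exact permutation p was 0.2 for Klf4 and 0.3 for Sema4a, with 0.1 the smallest that 3 against 3 libraries allow.

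Lists of genes by role held 129 flank regions, 4 higher and 5 lower (6.98%, background 7.55%). No flank was called in the authors' deposited table among 7 of neuropilins, semaphorins, plexins and VEGF receptors, 4 of Kruppel-like factors, 8 of p38 genes, 3 of mTORC1 genes and 10 of suppressive effectors of myeloid cells. At an unadjusted deposited p under 0.05 these lists held 1, 0, 1, 0 and 0 flanks. The mTORC1 list did not hold Slc38a9, whose flank was lower (-0.65). All 7 flanks of the neuropilin and semaphorin list had a fold below 0, from -0.49 to -0.05, beside 63.9% of all flanks. The 16 flanks of myeloid transcription factors ran from -0.41 to 0.28 with none called, 2 at an unadjusted p under 0.05. The 8 flanks of chemokine receptors, integrins and adhesion genes ran from -0.45 to 0.21, with none called and none at an unadjusted p under 0.05.

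Receptors of microbes and of dead cells held 3 of the 4 higher flanks of any list, from 9 flanks in all, where 2.56% of all regions were higher. Over all 116 regions of this list, 5 were higher and 10 lower in the authors' deposited table, with a median log2 fold of -0.13. These are the neighbouring C-type lectin receptors Clec4n (Dectin-2), Clec4d and Clec4e (Mincle), which recognise fungal and mycobacterial glycans and signal through an Fc receptor chain. The log2 folds of their flanks in the authors' deposited table were 0.48 (FDR 0.0243), 0.63 (FDR 0.0215) and 0.59 (FDR 0.00937), at -1794, -1611 and -2966 bases from the starts, where a minus marks the upstream side. The locus spans 65586 bases on chromosome 6 and holds 8 regions, 4 of them flanks, and no region other than these 3 was called in it. The regions at the starts of Clec4n and Clec4e stood at 0.07 and -0.15 in that table.

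The 250 bases before the start of Clec4e (chr6:123289872-123290121, minus strand, GRCm38.p6) are shown because the region over them did not differ while the flank further upstream did. Capitals mark the RUNX letters TGTGGT and the C/EBP letters TTGCNNAA, read on either strand, and the C/EBP letters occur in 9.56% of all windows.
Clec4e: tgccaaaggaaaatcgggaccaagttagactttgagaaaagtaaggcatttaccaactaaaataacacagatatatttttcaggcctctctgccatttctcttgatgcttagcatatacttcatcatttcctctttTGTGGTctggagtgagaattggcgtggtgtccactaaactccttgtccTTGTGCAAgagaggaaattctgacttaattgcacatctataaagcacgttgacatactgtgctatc
The flank itself lies outside the sequences used here.

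RNA of the 3 lectin receptors lay on the other side of 0. RNA of Clec4n was 8.68, 7.64 and 8.23 CPM in Nrp1 high and 31.2, 16.3 and 20.6 CPM in Nrp1 low. That of Clec4d was 7.20, 4.68 and 7.23 CPM in Nrp1 high and 19.1, 8.89 and 19.7 CPM in Nrp1 low, and that of Clec4e 22.1, 17.4 and 27.5 CPM in Nrp1 high and 35.2, 30.4 and 29.0 CPM in Nrp1 low. In each gene every Nrp1 high library was below every Nrp1 low library, and groups without overlap were found for 20.3% of all genes tested. The log2 differences were -1.47 ± 0.31, -1.32 ± 0.38 and -0.50 ± 0.25 (SE), and none passed edgeR's quasi-likelihood test with Benjamini-Hochberg adjustment (adjusted p = 0.112, 0.291 and 0.455). Clec4n passed with DESeq2 (adjusted p = 0.00313), and its adjusted p ran up to 0.532 over the alternatives run. Neutrophil granule genes, whose sums are given above, were lower in the same libraries, and their part in these differences was not tested.

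**Figure D3:**
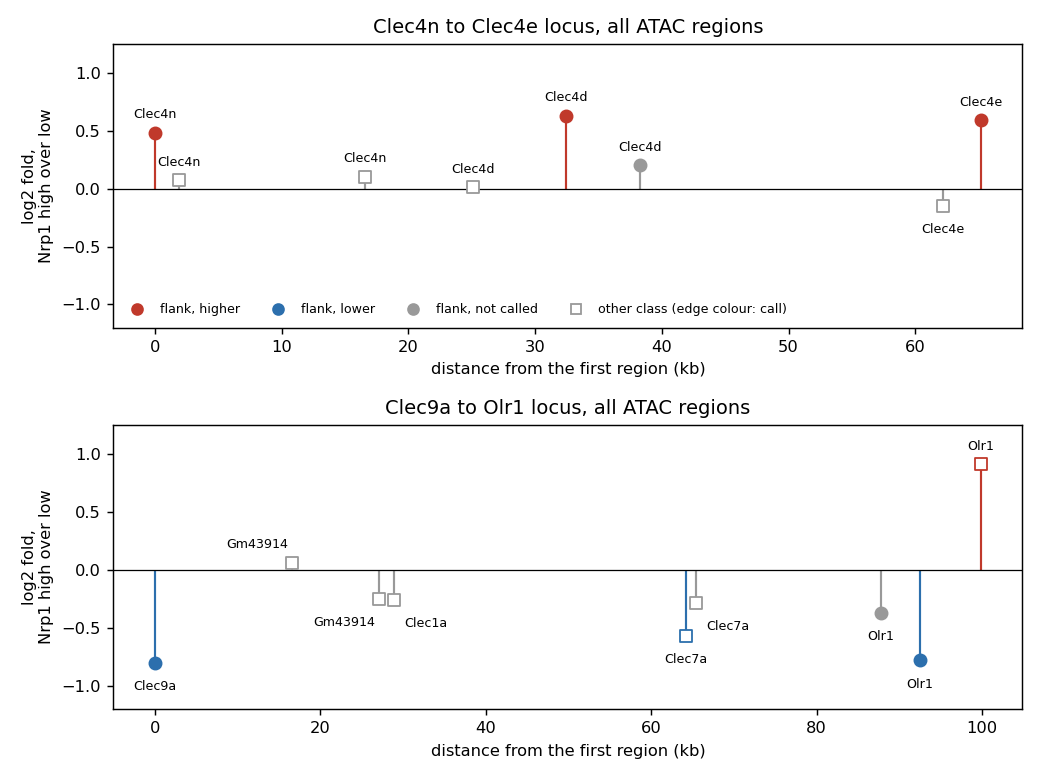
All ATAC regions of 2 lectin receptor loci, with the distance from the leftmost region in kb on the horizontal axis and the deposited log2 fold of Nrp1 high over Nrp1 low on the vertical; filled circles are flanks, open squares other classes, red higher, blue lower and grey not called. At Clec4n to Clec4e 3 flanks are higher (0.48, 0.63 and 0.59), and at Clec9a to Olr1 2 flanks are lower (-0.80 and -0.78).

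A second cluster of lectin receptors on chromosome 6 showed the other direction. The flank of Clec9a, a receptor of dead cells on dendritic cells, had a log2 fold of -0.80 (FDR 0.000687) in the authors' deposited table and lies inside the neighbouring Clec12b. A flank of Olr1, a receptor of oxidised lipoprotein chosen after its values were seen, stood at -0.78 (FDR 0.00484), while the region at the Olr1 start was higher (0.91, FDR 0.0422) in that table. A region within 1 kb of Clec7a (Dectin-1) was lower as well (-0.57). RNA of Olr1 was 6.68, 7.09 and 5.74 CPM in Nrp1 high against 5.82, 17.6 and 9.66 CPM in Nrp1 low, with overlap.

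Treml4 and Csf1r mark monocyte states. Treml4, a receptor of dead cells and a marker of non-classical monocytes, had a flank (chr17:48274802-48275201) at -0.88 (FDR 0.0056) in the authors' deposited table. RNA of Treml4 was 18.7, 24.1 and 16.4 CPM in Nrp1 high libraries and 71.3, 36.7 and 41.4 CPM in Nrp1 low libraries. No libraries overlapped, which held for 20.3% of all genes tested. The log2 difference of -1.33 ± 0.31 (SE) missed edgeR's quasi-likelihood test (Benjamini-Hochberg adjusted p = 0.182) and passed DESeq2 (adjusted p = 0.0103), with values up to 0.727 over the alternatives run. The non-classical list as a whole summed to between 1331 and 1428 CPM in Nrp1 high and between 1297 and 1510 CPM in Nrp1 low, with 1 of 16 genes lower in RNA and 1 of 8 flanks called. Csf1r, the receptor of macrophage colony-stimulating factor, had a flank at -0.45 (FDR 0.0406) in the authors' deposited table, and its RNA was 488.4, 463.8 and 494.7 CPM in Nrp1 high and 377.2, 469.8 and 413.4 CPM in Nrp1 low. Of the 10 flanks of the classical monocyte list, 1 was lower, that of Csf1r, and 1 was higher, that of Clec4e (0.59).

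Each of 4 other lists held 1 called flank in the authors' deposited table: Vwf (-1.05), the platelet adhesion protein von Willebrand factor, Tnip3 (-1.01), an inhibitor of NF-kB signalling, Hbb-bs (0.56), an adult beta globin, and Clec9a in the dendritic cell list. RNA of Vwf was 3.31, 3.88 and 2.50 CPM in Nrp1 high and 0.858, 7.64 and 4.29 CPM in Nrp1 low, so the Nrp1 low libraries lay on both sides. The platelet list summed to between 645.2 and 782.4 CPM in Nrp1 high and 755.3 and 1009 CPM in Nrp1 low, with 3 of 17 genes lower in RNA. Tgfbi held 2 flanks next to each other at 0.92 and -0.65 in the authors' deposited table, both just over the FDR threshold.

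The flank and the start of a gene were compared next. At least 1 region within 1 kb was assigned to the same gene for 1854 flanks. Where a gene had several, their mean log2 fold was used, and a call of any of them was counted. Spearman's rho between the fold of the flank and this mean over the 1854 flanks was 0.11. It is a description, since the regions share libraries and many share a gene. Of 96 higher flanks 36 had such a region, and for 2 of these 36 it was called higher and for 0 lower in the authors' deposited table. Of 223 lower flanks 101 had one, and for 7 of these (6.93%) it was called lower and for 4 higher. Over all 1854 such flanks at least 1 region within 1 kb was lower in 6.31% and higher in 1.94%, so the share lower is close to that of all flanks. Of 489 pairs of flanks with the same gene 59.1% had the same sign. Of all flanks 63.9% were below 0, which by itself favours a shared sign. How much of the 59.1% this covers was not tested. In 6 pairs both were called, 5 in the same direction: Nol4l, Pcnx, Rab7b and Tbxas1, the thromboxane synthase, were lower, and Dgkh, a diacylglycerol kinase, was higher (1.06 and 1.01). Kif1a, a kinesin, had 1 of each.

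Called flanks within 100 kb of each other formed 19 runs of 39 regions, 12 all lower, 3 all higher and 4 mixed, in the authors' deposited table. Of all called flanks 69.9% were lower, and some runs are pairs of the same gene named above. No count of runs over all regions is given for comparison. Clec4n to Clec4e and Dgkh were among the higher runs. Of the 5 genes with 4 flanks, P2ry12, a purine receptor of platelets and microglia, had 1 lower (-0.69) with the other 3 at -0.33, 0.32 and -0.17, and Rin2, a Rab5 exchange factor, had 1 lower (-0.65) with the other 3 at -0.36, 0.12 and -0.05. Rabgap1l, Adamtsl4 and Pde4d had none called, over a range from -0.52 to 0.27 in that table.

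RNA of the genes with a flank was compared separately, since RNA took no part in choosing them. Of 3408 such genes 2526 had a row in the RNA table and 1830 were tested. By edgeR's quasi-likelihood test with Benjamini-Hochberg adjustment over all 15541 genes, 24 were lower in Nrp1 high cells and 0 were higher. They make up 1.31% of those tested, where 0.682% of all genes tested were called, 0.676% lower and 0.00643% higher. At an unadjusted p under 0.05, 105 were above and 195 below 0, which is 16.4% of those tested, against 11.2% of all genes tested. DESeq2 called 12 higher and 65 lower of 2526. The 24 genes had a median log2 difference of -2.36. The count of 24 changed when 1 library was left out, which also leaves fewer libraries for the test. It was 0 without Nrp1 high replicate 3, 3 without Nrp1 high replicate 1 and 9 without Nrp1 high replicate 2. It was 4 without Nrp1 low replicate 3, 19 without Nrp1 low replicate 2 and 29 without Nrp1 low replicate 1. All 24 stayed below 0 in each case.

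Several of these 24 genes are known from neutrophils and their precursors. Ltf, the lactoferrin of secondary granules, stood at 244.1, 346.8 and 294.6 CPM in Nrp1 high libraries and 2090, 1564 and 2013 CPM in Nrp1 low libraries. Prtn3, the proteinase 3 of primary granules, stood at 390.3, 445.5 and 434.4 CPM in Nrp1 high and 1354, 1126 and 1344 CPM in Nrp1 low. All 3 Nrp1 high libraries of both genes lay far below all Nrp1 low libraries, with log2 differences of -2.68 ± 0.24 and -1.59 ± 0.19 (SE; edgeR's quasi-likelihood test, adjusted p = 0.00418 and 0.0108).

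Cebpe, the transcription factor of late granule genes, stood at 51.4, 98.3 and 60.6 CPM in Nrp1 high and 478.9, 303.0 and 382.0 CPM in Nrp1 low. The chemoattractant receptors Cxcr2 and C5ar1 were lower as well. RNA of Cxcr2 was 5.11, 6.79 and 7.16 CPM in Nrp1 high and 48.3, 28.6 and 28.0 CPM in Nrp1 low. RNA of C5ar1 was 13.6, 35.3 and 24.6 CPM in Nrp1 high and 155.4, 93.2 and 99.8 CPM in Nrp1 low. The remaining called genes were Olfm4, Cd177, Pglyrp1, Lrg1, Serpinb1a, Ctsg, Padi4, Alox5, Anxa3, Pram1, Adgrg3, Srgn, Mgst2, Vamp5, Ankrd22, Ica1, Slc6a12, Gm34680 and the platelet glycoprotein Gp5, with log2 differences from -3.14 to -1.23. The granule lists summed in the opening, with 18 of 24 and 8 of 17 members lower, share genes with these 24, such as Ltf and Prtn3. Their sums come from the same libraries and are not separate evidence.

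The flanks of these 24 genes were not called. Of their 26 flank regions 0 passed in the authors' deposited table, against a background of 7.55%, with 4 at an unadjusted p under 0.05, and their folds ran from -0.42 to 0.94. The flank of Olfm4, a secondary granule protein, stood highest at 0.94 (FDR 0.127), and a flank of Prtn3 lowest at -0.42 (FDR 0.193), its other 2 flanks at -0.22 and -0.21. Of the 39 other regions of the same genes, 1 of Mgst2 was higher (0.77) and 1 at the start of Ltf lower (-0.62) in that table. The flank of Ltf stood at -0.15.

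**Figure D4:**
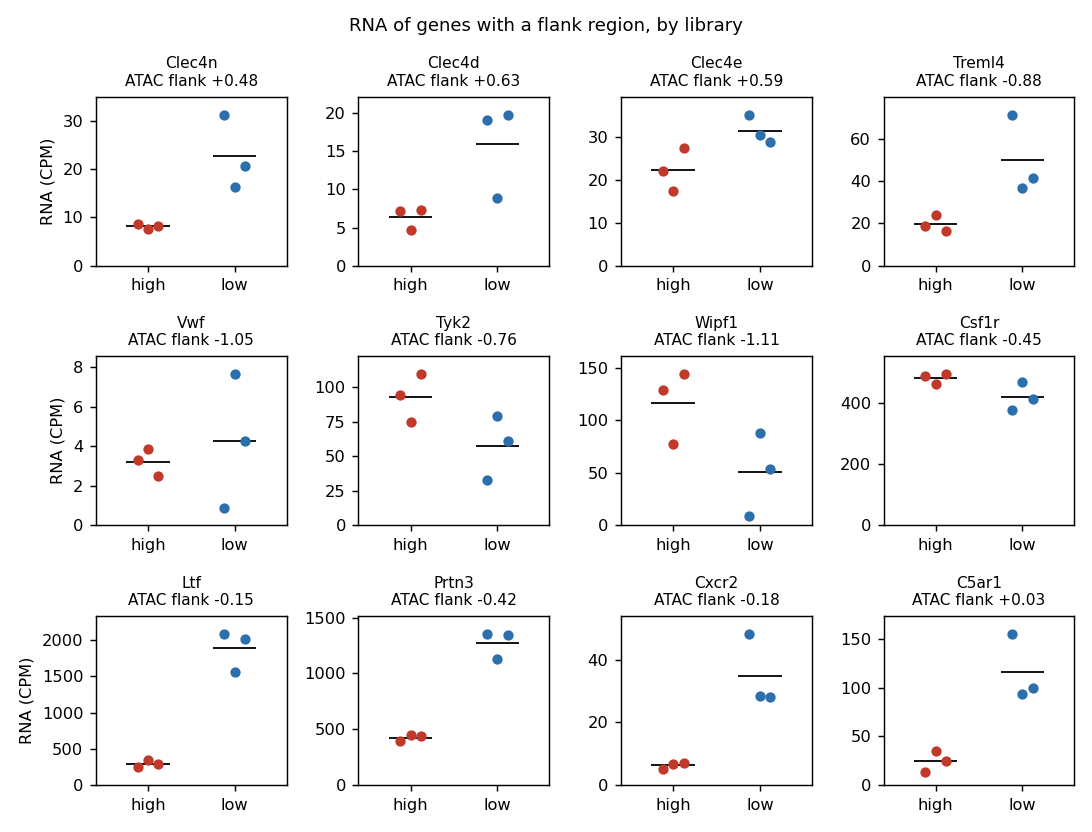
RNA in CPM of 12 genes with a flank region, 1 point per library and a bar at the mean of 3, Nrp1 high left and Nrp1 low right, with the deposited ATAC log2 fold of the flank of lowest FDR in each title. Ltf, Prtn3, Cxcr2 and C5ar1 are far lower in Nrp1 high with flank folds of -0.15, -0.42, -0.18 and 0.03, and the 3 Clec4 genes are lower in RNA with flank folds of 0.48 to 0.63.

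The folds of called flanks were set beside the RNA of their genes. Of 40 higher flanks with a gene tested in RNA, 17 had an RNA difference above 0 and 23 below, with a median log2 difference of -0.21. Of 118 lower flanks 67 had an RNA difference above 0 and 51 below, with a median of 0.11. Of 1976 flanks not called 53.5% had RNA above 0. The direction was shared by 68 of 158, or 43.0%, and if the fold ran the other way it would be shared by 90, or 57.0%, so this share follows the direction assumed. Over all regions, 247 of 518 higher and 745 of 1194 lower ones had RNA above 0. Spearman's rho between ATAC and RNA differences was -0.08 over 2134 flank regions and -0.09 over 25641 regions of all classes, descriptions across regions that share libraries and genes. No gene of a called flank passed edgeR's quasi-likelihood test with Benjamini-Hochberg adjustment. At an unadjusted RNA p under 0.05 stood 7 of 40 higher (17.5%) and 21 of 118 lower regions (17.8%), close to the 16.5% of the 1976 flanks not called. DESeq2 called 1 of 39 genes of higher flanks (Clec4n, lower) and 4 of 114 genes of lower flanks, 3 below and 1 above 0.

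**Figure D5:**
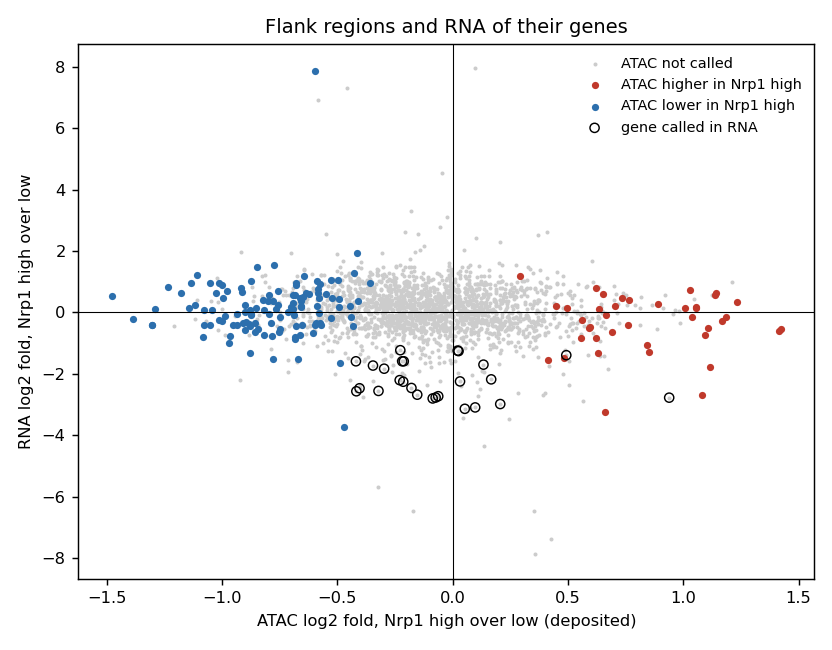
Each point is 1 of 2134 flank regions whose gene was tested in RNA, with the deposited ATAC log2 fold on the horizontal axis and the RNA log2 difference on the vertical, both Nrp1 high over Nrp1 low; red and blue mark regions called higher and lower, and rings mark genes called in RNA. All 26 ringed regions lie below 0 in RNA and none is red or blue.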

How the data were processed

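Values came from 2 deposited tables. For ATAC-seq the authors deposited their own comparison, which gives each region its log2 fold, p-value, FDR and assigned gene. The submitters' processing notes name ChIPseeker, DiffBind, MACS2, BWA, Picard, Trimmomatic, HISAT2, StringTie, DESeq2 and edgeR, without versions, and the build GRCm38. No value per library was used, so depth is unknown there and no library could be left out. A shift of reads for the transposase is not described in the sources used here. Adjusting the deposited p-values again by Benjamini-Hochberg gave the deposited FDR to within 0.000268.

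For RNA-seq the authors deposited estimated counts per gene, which are whole numbers, for 25562 genes. Strand is not stated, so overlapping and near-identical genes are uncertain. Library totals are 23395363 to 35127433. Genes kept by filterByExpr (15541) were scaled by TMM. The test was the robust quasi-likelihood F test of edgeR 4.0.16 (R 4.3.3) with group as its term, and genes were called at an adjusted p under 0.05. CPM uses TMM-scaled library sizes. The single-gene permutation test used log2(CPM + 1), and floors (3 counts) cover counting error only. The SE of a log2 difference was derived from the difference and its F statistic, and so includes the spread among libraries. The script was tested on simulated data.

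Flank regions named are, per direction, up to 10 with the lowest FDR and 5 with the largest fold, predicted models left out. To these were added flanks of genes called in RNA, up to 4 per gene list, genes with the most flanks, and those of 6 subject genes. Jak1, Acod1, Olr1 and a few others were chosen after their values were seen. One result under this rule is not reported here. The members and the 25 gene lists were chosen with earlier results of these data known. RefSeq GRCm38.p6 gave start windows and microRNAs. Of 2061 assigned protein-coding genes matched by symbol, 2055 overlapped RefSeq's coordinates of the same gene. The use of start windows in place of the regions was chosen after the files were seen. Alternatives were other thresholds, distances and widths, RLE, library totals, no filter, DESeq2 1.42.0, limma-voom (limma 3.58.1), a replicate block and leaving out each RNA library.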

Additional observations from a re-analysis of the deposited data

How the results depend on the processing

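In the authors' deposited table, the 96 higher and 223 lower flanks became 36 and 70 at an FDR under 0.01, 148 and 354 under 0.1, and 43 and 53 with an absolute log2 fold of at least 1. The 1 to 2 kb class alone held 54 and 111, and the 2 to 3 kb class 42 and 112. Choosing members by distance (3845 regions), by a width of 400 bases or 1 region per gene kept both counts within 1.5 times. The share of called flanks with the same direction in RNA was 37.8% at an absolute fold of at least 1 and 43.9% at a mean of at least 10 CPM, against 43.0%, and with the fold turned round 62.2% and 56.1%, against 57.0%.

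The 24 flank genes lower in RNA by edgeR became 65 with DESeq2, 12 more being higher, and 0 with the replicate number as a block (182 at an unadjusted p under 0.05). Correlations of deviations between libraries with the same number in both groups were -0.237, -0.240 and 0.021. Those between unlike numbers ran from -0.156 to 0.317. With 3 libraries per group these values cannot settle whether libraries were paired, by number or otherwise. Leaving out 1 library gave 0 to 29 lower and 0 to 1 higher genes. The other scalings, no filter and limma-voom gave 17 to 29, and all 24 genes kept their sign in every setting run. The RNA difference of Vwf (-0.40) was 0.17 with limma-voom and ran from -0.88 to 0.33 without 1 library, positive without Nrp1 low replicate 2. That of Jak1 (0.11) ran from -0.20 to 0.54, negative without Nrp1 low replicate 1, and the cause was not tested. Of the other single-gene values 428 stayed on their side of the threshold, 119 lost their call and 2 gained one. For ATAC, no paired analysis was possible because the table holds no value per library. Motifs over the flank regions were not run, since no genome was used.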

Other observations

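Other lower flanks, chosen after their values were seen, lay at genes of myeloid signalling in the authors' deposited table. Among them were Ifnb1 (-1.34), the interferon beta gene, Il5ra (-0.97), a receptor chain for interleukin-5, Ccl6 (-0.96), a myeloid chemokine, Ms4a6b (-0.98), a membrane protein of the MS4A family, and Rictor (-0.58), a subunit of mTORC2. RNA of Ccl6 was 446.2, 435.3 and 383.6 CPM in Nrp1 high and 837.3, 529.2 and 765.9 CPM in Nrp1 low, with no overlap, as for 20.3% of all genes tested. Its log2 difference was -0.75 ± 0.22 SE (edgeR's quasi-likelihood test, Benjamini-Hochberg adjusted p = 0.306). RNA of Ifnb1 gave 0, 0.0917 and 0 CPM in Nrp1 high and no count in Nrp1 low, where 3 counts would be 0.0953 to 0.125 CPM. Among higher flanks chosen in the same way, Ddx58 (1.23 in the authors' deposited table) encodes the RNA sensor RIG-I and Xdh (0.77) xanthine dehydrogenase. A second flank of Ddx58 stood at -0.75 and a second flank of Xdh at -0.03, neither called. Of 4 regions of Xdh outside the flanks 1 was lower. Stx4a, a syntaxin of secretion, had a flank at -1.24 in that table. RNA of Stx4a was 61.8, 25.4 and 54.8 CPM in Nrp1 high and 12.97, 29.8 and 37.1 CPM in Nrp1 low, with overlap.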
